A study of Arabidopsis thaliana with 8 samples.

Results

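The 9 genes described here encode enzymes that make and remove hydrogen peroxide and zinc finger proteins that respond to it: the NADPH oxidases RBOHD (AT5G47910) and RBOHF (AT1G64060), the ascorbate peroxidases APX1 (AT1G07890) and APX2 (AT3G09640), the catalases CAT1 (AT1G20630), CAT2 (AT4G35090) and CAT3 (AT1G20620), and the transcription factors ZAT10 (AT1G27730) and ZAT12 (AT5G59820). They were looked up by locus, and all 9 have a row among the 32678 genes of each of the 3 deposited comparisons. The groups were whole wild-type (WT) Arabidopsis thaliana seedlings of the Col background, 10 days old, kept at 22 °C in continuous light on MS medium and treated with ABA (abscisic acid), PA (phaseic acid) or DPA (dihydrophaseic acid), each at 50 µM for 3 h, or mock-treated, for which the labels give no time. Each of the 4 groups held 2 biological replicates, 8 libraries of polyadenylated RNA in all. ABA is the hormone of water deficit. PA is made from ABA by oxidation and carries an extra ring closed through an oxygen, and in DPA the ring ketone of PA is reduced to a hydroxyl group.

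RBOH proteins sit in the plasma membrane and use cytosolic NADPH to make superoxide outside the cell, which turns into hydrogen peroxide. In guard cells, this burst is a step of ABA signalling, and the ABA-activated kinase OST1 phosphorylates RBOHF. Catalases break hydrogen peroxide down in peroxisomes, ascorbate peroxidases reduce it in the cytosol and organelles with ascorbate, and ZAT10 and ZAT12 are rapidly induced by many stresses and by hydrogen peroxide itself.

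The promoters of 4 of the 5 genes that rose with ABA are shown, so that the results below can be read beside them; that of the fifth, RBOHF, held no match to any motif searched. The bases are those just before the annotated gene start on the TAIR10.1 assembly (RefSeq), 5′ to 3′ on the gene's strand. Capitals mark ACGTG, the core of the ABA-responsive element and of the G-box, on either strand, and GAANNTTC, a unit of the heat shock element. The APX2 sequence is chr3:2955906-2956155 (plus strand), that of CAT1 is chr1:7146541-7146635 (plus), that of ZAT10 is chr1:9649324-9649573 (minus) and that of ZAT12 is chr5:24102564-24102813 (plus). The CAT1 sequence is the whole stretch between CAT3 and CAT1, which lie in tandem on the plus strand with 95 bases between them.
APX2: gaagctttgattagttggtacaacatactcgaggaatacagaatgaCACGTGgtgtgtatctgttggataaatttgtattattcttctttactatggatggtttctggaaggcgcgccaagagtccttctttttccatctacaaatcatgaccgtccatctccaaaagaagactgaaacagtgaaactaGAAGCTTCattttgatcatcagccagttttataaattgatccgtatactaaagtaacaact
CAT1: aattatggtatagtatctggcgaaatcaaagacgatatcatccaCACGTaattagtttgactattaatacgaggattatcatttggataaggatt
ZAT10: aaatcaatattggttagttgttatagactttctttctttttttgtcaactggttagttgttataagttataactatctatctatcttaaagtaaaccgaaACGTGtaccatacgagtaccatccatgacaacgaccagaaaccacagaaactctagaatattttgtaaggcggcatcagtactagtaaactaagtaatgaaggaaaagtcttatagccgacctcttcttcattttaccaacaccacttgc
ZAT12: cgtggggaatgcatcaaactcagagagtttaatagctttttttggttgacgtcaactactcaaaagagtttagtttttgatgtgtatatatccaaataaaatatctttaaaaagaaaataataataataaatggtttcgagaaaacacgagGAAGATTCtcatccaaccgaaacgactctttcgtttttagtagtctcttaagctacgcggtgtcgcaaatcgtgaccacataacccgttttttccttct

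Both ACGTG matches of APX2 are the overlapping strands of 1 CACGTG palindrome, 204 and 203 bases before the start, and its GAANNTTC match lies 61 bases before the start. In the window from 250 bases before to 50 bases after the start, ACGTG also occurred in CAT1 at -51 and +19, in ZAT10 at -150, +10, +11 and +32, in ZAT12 at +18 and in APX1 at -167. The matches of ZAT10 at +10 and +11 are again overlapping strands of a palindrome. No ACGTG was found in these windows of RBOHD, RBOHF, CAT2 and CAT3, which says nothing of sites elsewhere. Of all 27443 protein-coding promoters of this length, 26.7% held ACGTG and 10.7% held at least 2 matches, counted over both strands. GAANNTTC occurred in APX1, APX2 and ZAT12 and in 11.6% of all promoters. CGCGT, a core bound by CAMTA factors, occurred in APX1 and ZAT12 and in 8.7% of all. AAAATATC, the core of the evening element, occurred in CAT3 at -79 and in ZAT12 at -153, and in 6.89% of all. Matches were searched on both strands and are a description of these letters only.

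**Figure D1:**
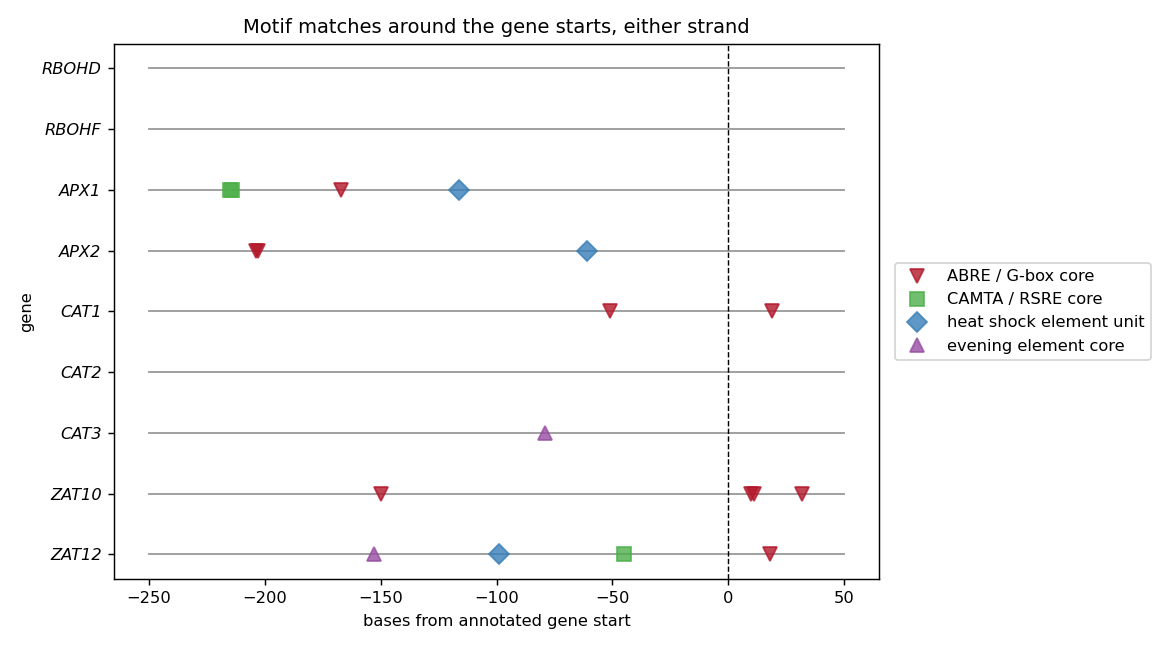
Matches of 4 motifs (triangles down, ACGTG; squares, CGCGT; diamonds, GAANNTTC; triangles up, AAAATATC) on either strand, by distance in bases from the annotated gene start, for each of the 9 genes. ZAT10 carries 4 ACGTG matches, and no motif lies in the windows of RBOHD, RBOHF and CAT2.

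Libraries held between 1.15e+07 and 1.59e+07 gene reads. The authors deposited group means of normalized counts, that is, reads divided by a library's size factor, from which the value of each library was recovered. Each pair of library values below gives the library of the larger size factor first, since the replicate numbers cannot be tied to libraries. The 4 green tissue markers were abundant in all libraries, with summed levels of 177846 and 205891 in ABA, and 204266 and 236969 in mock seedlings. The 5 root markers summed to 21751 and 23938 in ABA, and 32241 and 30057 in mock seedlings, of which PYK10 alone made 20874.5 and 23128.5 in ABA, and 31181 and 29031 in mock seedlings. SCR was far lower, and WER, RHD6 and IRT1 had at most 19.6 in ABA libraries and at most 124 in mock libraries. The 2 pollen markers summed to at most 1.22 in any library. The 2 libraries of a group differed by an SD of 0.228 (ABA), 0.218 (PA), 0.241 (DPA) and 0.336 (mock) on the log2 scale, over 16418 genes (mean of 50 or more). With 2 libraries a group, an exact permutation test cannot give a p below 0.333, so the tests below come from fits across all genes.

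On the scale of mean normalized counts per kilobase of exon, the order of levels in mock seedlings was CAT3 (11679), CAT2 (7942), APX1 (1422), RBOHD (257), CAT1 (204), RBOHF (81.0), ZAT10 (31.1), ZAT12 (8.58) and APX2 (1.02). Neighbours in this order did not overlap between the mock libraries. In ABA seedlings the order was CAT2 (8345), CAT3 (8002), APX1 (1639), CAT1 (324), RBOHD (210), RBOHF (199.7), ZAT10 (143), ZAT12 (122) and APX2 (24.9). CAT2 and CAT3 overlapped there, with 8436 and 8254 for CAT2 and 7276 and 8727 for CAT3, whereas RBOHD and RBOHF, next to each other, did not. PA and DPA seedlings kept the order of mock seedlings, from 11741 for CAT3 to 0 for APX2 in PA seedlings and from 11793 for CAT3 to 0.468 for APX2 in DPA seedlings. RBOHF stood at 97.9 in PA and 85.1 in DPA seedlings, and CAT1 at 232 in PA and 213 in DPA seedlings.

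**Figure D2:**
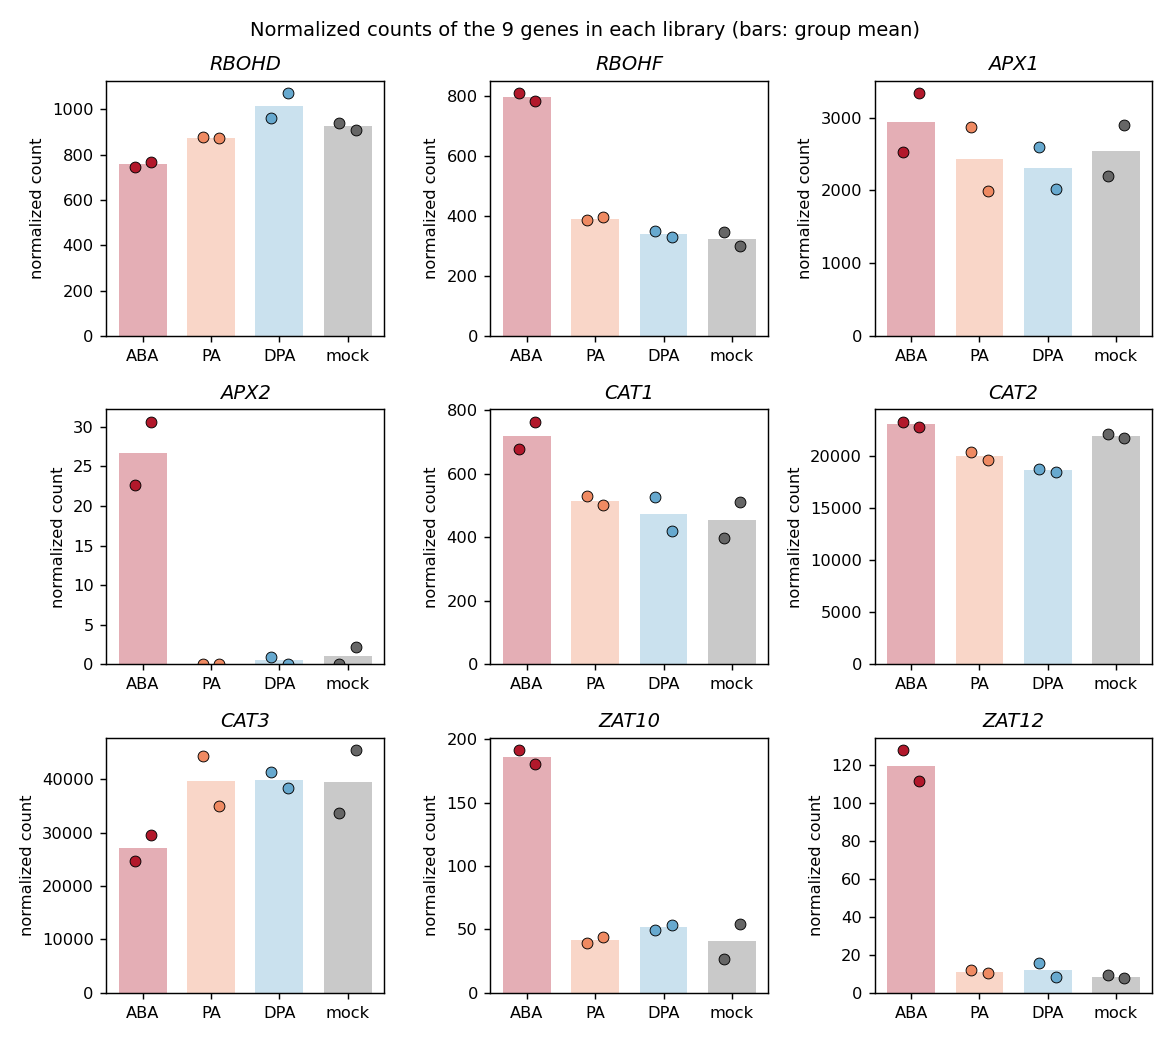
Normalized counts (linear axes from 0) of the 9 genes in ABA, PA, DPA and mock seedlings. Points are the 2 libraries of a group and bars their mean. RBOHF, APX2, CAT1, CAT2, ZAT10 and ZAT12 are higher in both ABA libraries than in all 6 other libraries, CAT2 by a narrow margin. CAT2 was not called (DESeq adjusted p = 0.905). The share of all genes separated in this way, here or in the text, was not counted.

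Against mock, ABA raised 5 of the 9 genes and lowered 0 in the authors' deposited table (DESeq adjusted p under 0.05), where 15.4% of the 24069 genes tested were called in either direction, 10.3% higher and 5.12% lower. Those 5 were APX2, ZAT12, ZAT10, RBOHF and CAT1. RBOHD, APX1, CAT2 and CAT3 did not pass in that table. By limma, 4 of 8 genes were higher and 2 lower, where 32.3% of 19617 genes were called, 18% higher and 14.3% lower. The median log2 fold change of the 9 genes was 0.66 in the authors' deposited table, against -0.01 for all genes with a fold change. In bulk seedlings, fewer cells of a type and less RNA per cell cannot be told apart.

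RBOHF, the oxidase phosphorylated by OST1, had 809.8 and 785 normalized counts in ABA seedlings, against 347 and 299.8 in mock seedlings. PA seedlings had 385 and 396 and DPA seedlings 351 and 329. Both ABA libraries stood above the other 6. In the authors' deposited table, RBOHF had a log2 fold change of 1.30 with ABA (DESeq adjusted p = 3.48e-13). RBOHD, the oxidase of the pathogen-triggered burst, had lower values with ABA, with 746 and 769 in ABA seedlings, 878 and 871 in PA seedlings, 961 and 1071 in DPA seedlings, and 941 and 910 in mock seedlings. Both ABA libraries of RBOHD lay below all others. The log2 fold change of RBOHD in ABA seedlings was -0.29, with an adjusted p of 0.222 in the authors' deposited table (DESeq). In a limma fit of the recovered libraries the same change was -0.29 ± 0.08 (SE, adjusted p = 0.0189), but leaving out single libraries gave limma adjusted p between 0.0294 and 0.0994, with the call kept only without the mock library of the smaller size factor.

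Per kilobase of exon, RBOHF made 49.5% and 47.9% of the summed RBOHD and RBOHF level in ABA seedlings, against 24.98% and 22.9% in mock seedlings. The same share was 28.4% and 29.1% in PA seedlings and 24.8% and 21.7% in DPA seedlings. The pair was at nearly equal level in ABA seedlings, while RBOHD was the larger in the other 3 groups. The 2 genes share no 50-base window with up to 2 mismatches, so reads of that length distinguish them at that tolerance.

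APX2, an inducible cytosolic ascorbate peroxidase known as a target of heat shock factors, was close to silent outside ABA seedlings. It had 22.6 and 30.6 normalized counts in ABA seedlings, 0 and 0 in PA seedlings, 1.00 and 0 in DPA seedlings, and 0 and 2.18 in mock seedlings. In reads, that is 51 in ABA seedlings against 2 in mock seedlings, a ratio of 24.6 after scaling (exact 95% interval 6.47 to 208.5, counting error only). APX2 had a log2 fold change of 4.61 with ABA in the authors' deposited table (DESeq adjusted p = 0.000115). APX1, the constitutive cytosolic form, had 2533 and 3335 in ABA seedlings, against 2194 and 2896 in mock seedlings, and the groups overlapped. PA seedlings had 2871 and 1985 and DPA seedlings 2593 and 2024, which overlap those of mock seedlings. Its log2 fold change was 0.21 with an adjusted p of 0.893 in the authors' deposited table (DESeq), and limma's 95% interval ran from -0.26 to 0.67. Even in ABA seedlings APX2 made 1.47% and 1.52% of the summed level of both genes per kilobase.

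Of the catalases, only CAT1 rose in the authors' deposited table, and CAT1 was also the least abundant of the 3 in every library. CAT1 had 677 and 764 normalized counts in ABA seedlings, against 397 and 512 in mock seedlings. PA seedlings had 530.1 and 502 and DPA seedlings 528 and 421. The ABA libraries did not overlap with any other group, and the log2 fold change was 0.66 in the authors' deposited table (DESeq adjusted p = 0.00283). In limma it was 0.67 ± 0.14 (SE, adjusted p = 0.00585), and without the ABA library of the smaller size factor the limma adjusted p was 0.0512. CAT2, the photorespiratory catalase of leaves, had 23342 and 22839.5 in ABA seedlings, against 22151 and 21798 in mock seedlings. PA seedlings had 20468 and 19701. The ABA libraries lay above all others, but by little. The difference from mock was 0.07 on the log2 scale, with an adjusted p of 0.905 in the authors' deposited table (DESeq), and it was -0.02 in limma with upper-quartile scaling. CAT3, the catalase whose transcript is under evening clock control, had 24631 and 29541 in ABA seedlings, against 33612 and 45453 in mock seedlings. PA seedlings had 44416 and 35069 and DPA seedlings 41389 and 38449. Both ABA libraries of CAT3 lay below all 6 others, while the 2 mock libraries stood wide apart. The log2 fold change of CAT3 was -0.55 with an adjusted p of 0.202 in the authors' deposited table (DESeq). limma gave -0.54 ± 0.18 (SE, adjusted p = 0.0434), and with single libraries left out its adjusted p was between 0.00916 and 0.237, under 0.05 only without the mock library of the larger size factor.

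Per kilobase of exon, CAT1 made 1.90% and 1.98% of the summed catalase level in ABA seedlings, against 0.986% and 1.07% in mock seedlings. CAT3 made 45.4% and 50.4% in ABA seedlings, against 54.8% and 62.4% in mock seedlings. The share of CAT3 in PA seedlings was 63.2% and 58.5% and in DPA seedlings 63.5% and 62.2%, so the ABA libraries were the lowest of the 8. CAT1 and CAT3 share 30 of 2177 windows of 50 bases with up to 2 mismatches (1.38% of CAT1), so reads there could be counted for the other gene. In mock seedlings the mean normalized count was 39532 for CAT3 and 455 for CAT1. A small part of CAT3 reads could therefore weigh on CAT1, which was not tested. CAT2 overlaps AT4G35080 on the other strand in 95 exonic bases, whose mean was 342 in ABA seedlings and 409 in mock seedlings; the kit is not stated to mark strand.

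ZAT12 and ZAT10, C2H2 zinc finger proteins with a repressor motif, had the largest log2 fold changes of the 9 genes after APX2. ZAT12 had 128 and 111 normalized counts in ABA seedlings, 11.99 and 10.5 in PA seedlings, 16.0 and 8.26 in DPA seedlings, and 9.19 and 7.63 in mock seedlings. Its 238 reads in ABA seedlings stood against 16 in mock seedlings, a scaled ratio of 14.3 (exact 95% interval 8.65 to 25.5). In the authors' deposited table, ZAT12 had a log2 fold change of 3.83 (DESeq adjusted p = 1.3e-16). ZAT10 had 191 and 180.05 in ABA seedlings, 39.4 and 44.4 in PA seedlings, 49.9 and 53.7 in DPA seedlings, and 26.6 and 54.5 in mock seedlings. The mock libraries of ZAT10 span the PA and DPA values, and the ABA libraries lie above all others. In the authors' deposited table, ZAT10 had a log2 fold change of 2.20 (DESeq adjusted p = 3.9e-12).

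ZAT10, ZAT12 and other early stress genes respond to handling, so a list of 6 touch genes was measured beside them. With ABA, 3 of the 6 rose and 1 fell in the authors' deposited table, with log2 fold changes of 1.33 for ERF105, 1.32 for WRKY40, 0.93 for TCH4 and -0.76 for TCH2. Of all 24069 genes tested there, 10.3% were higher and 5.12% lower. Without single libraries, the limma adjusted p reached 0.0556 for WRKY40 and 0.0588 for TCH2, and was between 0.0693 and 0.228 for TCH4. The summed touch level was 2840 and 2238 in ABA seedlings, 1095 and 2455 in PA seedlings, 2634 and 3062 in DPA seedlings, and 2137 and 1772 in mock seedlings. Guard cell markers summed to 972 and 1118 in ABA seedlings, against 1331 and 1566 in mock seedlings. In the authors' deposited table, 2 of 6 (MYB60 at -1.05 and KAT1 at -0.61) fell. SPCH (-0.51), FAMA (-0.33) and HT1 (-0.30) were not called. SLAC1 went the other way at 0.44, also not called, with 109.6 and 129.8 in ABA seedlings against 75.6 and 101.4 in mock seedlings. Of 5 root markers, PYK10 (-0.45) and IRT1 (listed at 0 in ABA seedlings) fell in the authors' deposited table; the limma adjusted p of PYK10 was 0.0817. The part of these lists in the changes of the 9 genes was not tested.

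**Figure D3:**
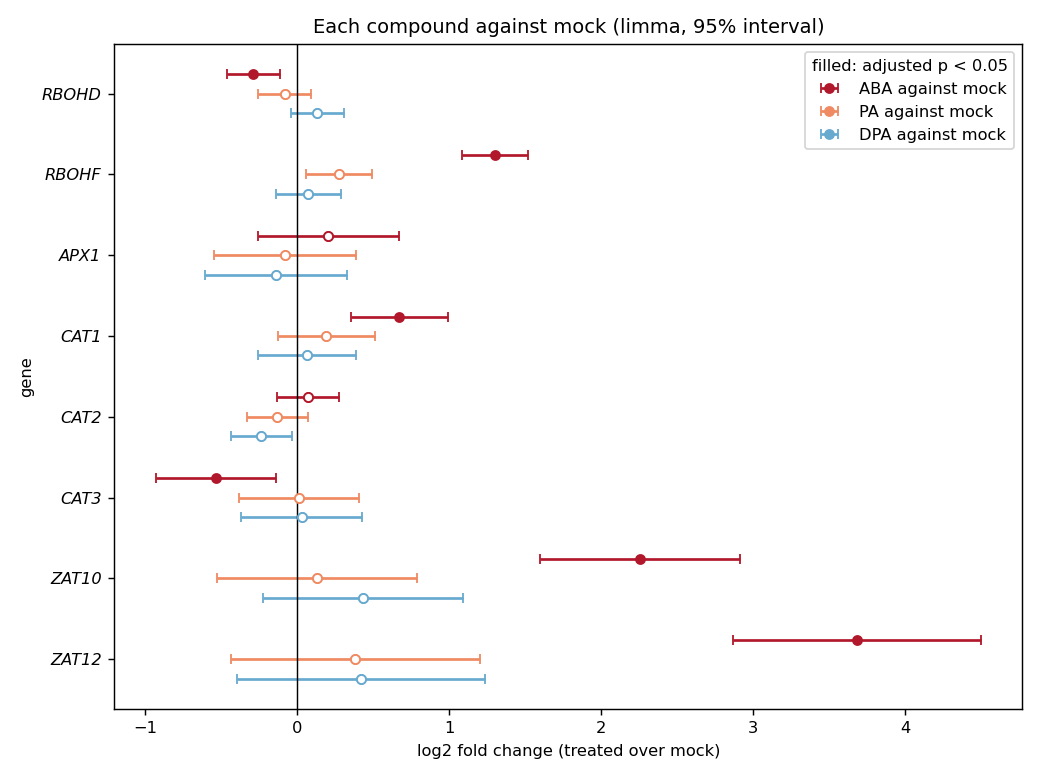
log2 fold changes with 95% intervals from limma for ABA, PA and DPA, each against mock, for 8 of the 9 genes. APX2, with a mean under 10, is not drawn. Filled points passed an adjusted p of 0.05; with ABA, ZAT12, ZAT10, RBOHF and CAT1 lie to the right and RBOHD and CAT3 to the left, and no PA or DPA point is filled.

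With PA, 0 of the 9 genes passed in the authors' deposited table (DESeq), 0 of them at an unadjusted p under 0.05, and 1.33% of 23985 genes tested were called, 1.18% higher and 0.146% lower. By limma, 0 of 8 were called, 1 at an unadjusted p under 0.05, with 2.15% of 19617 genes called, 1.84% higher and 0.311% lower. The limma log2 fold changes and 95% intervals for PA were 0.28 (0.06 to 0.49) for RBOHF, 0.19 (-0.13 to 0.51) for CAT1, 0.13 (-0.53 to 0.79) for ZAT10 and 0.38 (-0.43 to 1.20) for ZAT12. Those intervals leave room for smaller changes than ABA's. For the 4 genes, the upper bound of each PA interval lies below the lower bound of the ABA interval, except for CAT1 (ABA 0.35 to 0.99).

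With DPA, 0 of the 9 genes passed in the authors' deposited table (DESeq), and 1 (CAT2) had an unadjusted p under 0.05, where 0.0125% of 23970 genes were called, 0.00834% higher and 0.00417% lower. By limma 0 of 8 passed, 1 at an unadjusted p under 0.05, and 0% of all genes did. CAT2 had 18792 and 18541 normalized counts in DPA seedlings, against 22151 and 21798 in mock seedlings, and the libraries did not overlap. That log2 fold change was -0.24 (limma 95% interval -0.44 to -0.03). RBOHF in DPA seedlings was 0.07 (-0.14 to 0.29) and ZAT12 was 0.42 (-0.40 to 1.24) on the same scale.

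The compounds were compared pairwise, in 3 pairs, with limma over all 8 libraries at the same dose and time. In PA against ABA seedlings, 4 of 8 genes were lower and 0 higher at adjusted p under 0.05, where 19.9% of 19617 genes were called, 7.34% higher and 12.6% lower. RBOHF was -1.03 ± 0.10 (limma adjusted p = 8.69e-05), ZAT10 was -2.12 ± 0.29 (limma adjusted p = 0.00086) and ZAT12 was -3.30 ± 0.36 (limma adjusted p = 0.000238), each with its SE. CAT1 was -0.48 ± 0.14 (limma adjusted p = 0.0422), but none of the 4 fits without a library of either group called it, with limma adjusted p between 0.0863 and 0.218. A normal test of the deposited fold changes called neither ZAT10 (adjusted p = 0.0955) nor CAT1 (adjusted p = 0.523). That test takes each SE from a deposited log2 fold change and its p. It treats 2 comparisons that share the mock libraries as independent. For a change near 0, such as ZAT10 with PA (0.05, DESeq unadjusted p = 0.946), this SE is uncertain, so the missing ZAT10 call decides nothing. With upper-quartile scaling the split was 2 higher (RBOHD and CAT3) and 3 lower, where 2435 of 19613 genes were higher and 1934 lower. APX2 reads were 0 in PA seedlings against 51 in ABA seedlings, at least 17.5-fold higher in ABA seedlings when 0 is taken as 3 reads over the group. The exact 95% lower limit of that ratio, for counting error only, was 13.7. A limma fit with no filter on low values gave APX2 -4.77 ± 0.61 for PA against ABA (SE, adjusted p = 0.000905).

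In DPA against ABA seedlings, 5 of 8 genes were lower and 2 higher, where 34.1% of 19617 genes were called by limma, 18.6% lower and 15.5% higher. RBOHF was -1.23 ± 0.10 (SE, limma adjusted p = 1.24e-05), ZAT10 was -1.82 ± 0.29 (limma adjusted p = 0.00111), ZAT12 was -3.26 ± 0.36 (limma adjusted p = 0.000122) and CAT1 was -0.61 ± 0.14 (limma adjusted p = 0.00888). RBOHD was 0.42 ± 0.08 (SE) higher with DPA (limma adjusted p = 0.00253), which held in all 4 fits without a library. CAT2 at -0.31 (limma adjusted p = 0.0254) and CAT3 at 0.56 (limma adjusted p = 0.0334) passed as well, but without single libraries their limma adjusted p ran from 0.081 to 0.152 and from 0.0497 to 0.198. With no filter on low values they were 0.0621 for CAT2 and 0.0635 for CAT3. The normal test of the deposited fold changes, with the limits given above, called neither, nor RBOHD or CAT1. The CAT1 call was lost in 2 of those 4 fits, with limma adjusted p up to 0.0786. For APX2 the reads were 1 in DPA seedlings against 51 in ABA seedlings. The unfiltered limma fit gave APX2 -4.27 ± 0.61 for DPA against ABA (SE, adjusted p = 0.000866).

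In DPA against PA seedlings, 0 of 8 genes passed limma's test, 1 (RBOHD) at an unadjusted p under 0.05, where 3.83% of 19617 genes were called, 1.39% higher and 2.44% lower. RBOHD was 0.21 (95% interval 0.04 to 0.39, limma adjusted p = 0.17), RBOHF was -0.20 (-0.42 to 0.01), ZAT10 was 0.30 (-0.35 to 0.96) and ZAT12 was 0.04 (-0.78 to 0.85). With 3.83% of all genes called, 0 of 8 lies near the share of all genes and says little of these 8 genes in particular. The intervals above leave room for differences between PA and DPA. APX2 had 1 read in DPA seedlings and 0 in PA seedlings. The comparisons share libraries: those with mock share the mock libraries, and both comparisons against ABA share the ABA libraries.

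**Figure D4:**
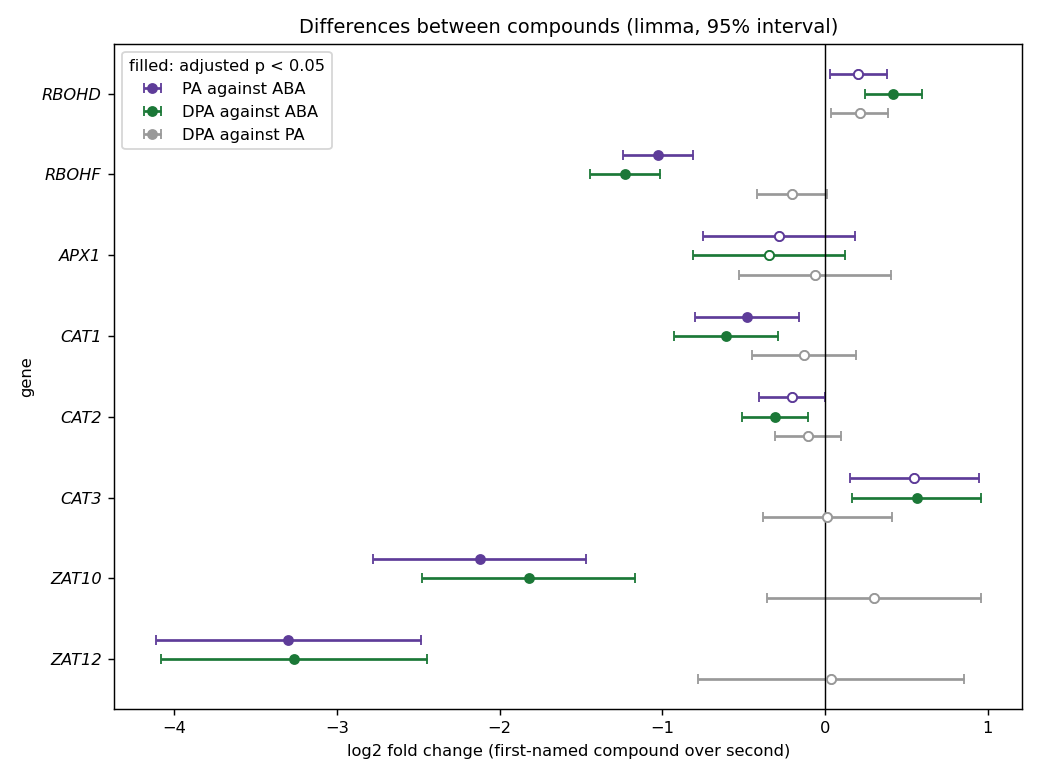
log2 fold changes with 95% intervals from limma between compounds (first-named over second) for 8 of the 9 genes, APX2 not drawn. RBOHF, ZAT10 and ZAT12 lie well below 0 for PA and DPA against ABA, and all points of DPA against PA are open (not called).

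The other genes of oxidant metabolism were read from lists of 84 genes, of which 82 were tested. In the authors' deposited table, ABA raised 20 of the 82 and lowered 4, with a median log2 fold change of 0.15. There, 10.3% of all genes tested were higher and 5.12% lower. By limma, 23 of 75 were higher and 12 lower, where 18% of 19617 genes were higher and 14.3% lower. Including marker and touch lists (107 genes), 23 were higher and 9 lower in the authors' deposited table. With upper-quartile scaling, limma gave 23 higher and 22 lower of 95 tested, where 2981 of all 19613 genes were higher and 3942 lower. Of the hallmark genes that respond to many reactive oxygen species, 7 of 9 rose in the authors' deposited table, with a median of 2.01: AT1G05340 by 5.52, OXI1, a kinase activated by hydrogen peroxide, by 3.63, and OM66, an outer mitochondrial membrane protein, by 3.44. Of the related C1-2i zinc finger genes, 2 of 9 rose in the authors' deposited table, ZAT6 by 4.18 and AZF2 by 3.21. By limma, 2 of the 5 that were tested were higher (the same 2 genes) and 2 lower, ZAT5 at -0.46 and AZF1 at -1.65, both named after their values were seen.

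Among 6 tested RBOH family members other than RBOHD and RBOHF, only RBOHE passed in the authors' deposited table, with a log2 fold change of 2.38 and 179 and 198 normalized counts in ABA seedlings, against 41.9 and 30.5 in mock seedlings. By limma, 2 of 5 were higher (RBOHE and RBOHC) and 2 lower (RBOHB and RBOHG). RBOHG had 19.1 and 34.3 in ABA seedlings, against 246 and 66.5 in mock seedlings, and those of PA were 29.1 and 29.2. RBOHB, RBOHC, RBOHG and, below, CSD3 were named after their values were seen. Of 12 regulators of RBOH proteins, 3 rose in the authors' deposited table: PBL13, a kinase that restrains RBOHD, by 2.02, OST1 by 1.61 and CIPK11 by 1.57. GHR1, a receptor-like protein of guard cell hydrogen peroxide signalling, was -0.77 in the authors' deposited table, a fall that passed. OST1 had 938 and 875 normalized counts in ABA seedlings, against 274 and 318 in mock seedlings, with 345 and 344 in PA seedlings. Both ABA libraries of OST1 stood above the other 6, as those of RBOHF did.

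Of 15 ascorbate-glutathione cycle genes, 4 rose and 2 fell in the authors' deposited table: GR1, a glutathione reductase, by 1.29, DHAR1, a dehydroascorbate reductase, by 1.00, and VTC5, an enzyme of ascorbate synthesis, by 0.78 were the largest rises. MDAR3, a monodehydroascorbate reductase, fell by 1.79 and GSH2, glutathione synthetase, by 0.41 in the authors' deposited table. MDAR3's limma call was lost without the ABA library of the larger size factor (limma adjusted p = 0.0521). Of 8 glutathione peroxidase-like genes, GPX2 (1.32), GPX6 (0.86) and GPX5 (0.46) rose in the authors' deposited table. GPX5's limma adjusted p was 0.0776 without the ABA library of the larger size factor. No other ascorbate peroxidase (0 of 6, 1 at an unadjusted p under 0.05), no superoxide dismutase (0 of 7, 1) and none of 5 heat shock factors (0 of 5, 0) passed in the authors' deposited table (DESeq). Of all genes tested there, 15.4% were called, 10.3% higher and 5.12% lower, so 0 calls in lists this short say little of these families. By limma, 0 of 6 ascorbate peroxidases, 1 of 7 superoxide dismutases (CSD3, 0.40) and 0 of 5 heat shock factors were called, where 32.3% of 19617 genes were called. Of 5 catalase partners and glycolate oxidases, GOX2 fell by 0.59 in the authors' deposited table, with 5753 and 5796 in ABA seedlings, against 8299 and 9087 in mock seedlings.

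With PA, 5 of the 82 tested genes passed in the authors' deposited table, 4 higher and 1 lower, where 1.18% of all genes tested were higher and 0.146% lower. AT1G05340 rose by 2.02, ZAT6 by 1.59, AZF2 by 1.01 and CIPK11 by 0.89 in the authors' deposited table, and MDAR3 fell by 2.38. AZF2 had 175 and 198 normalized counts in PA seedlings, against 74.6 and 110.1 in mock seedlings, and 926 and 786 in ABA seedlings. In fits leaving out a library, limma's adjusted p reached 0.206 for AZF2, 0.112 for ZAT6, 0.144 for MDAR3 and 0.0669 for CIPK11, while AT1G05340 passed in all 4. With DPA, 0 of 82 passed in the authors' deposited table (DESeq), 2 at an unadjusted p under 0.05, and by limma 0 of 75. ZAT6 and AZF2, close relatives of ZAT10, were called with PA while ZAT10 and ZAT12 were not; the difference between these genes was not tested.

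**Figure D5:**
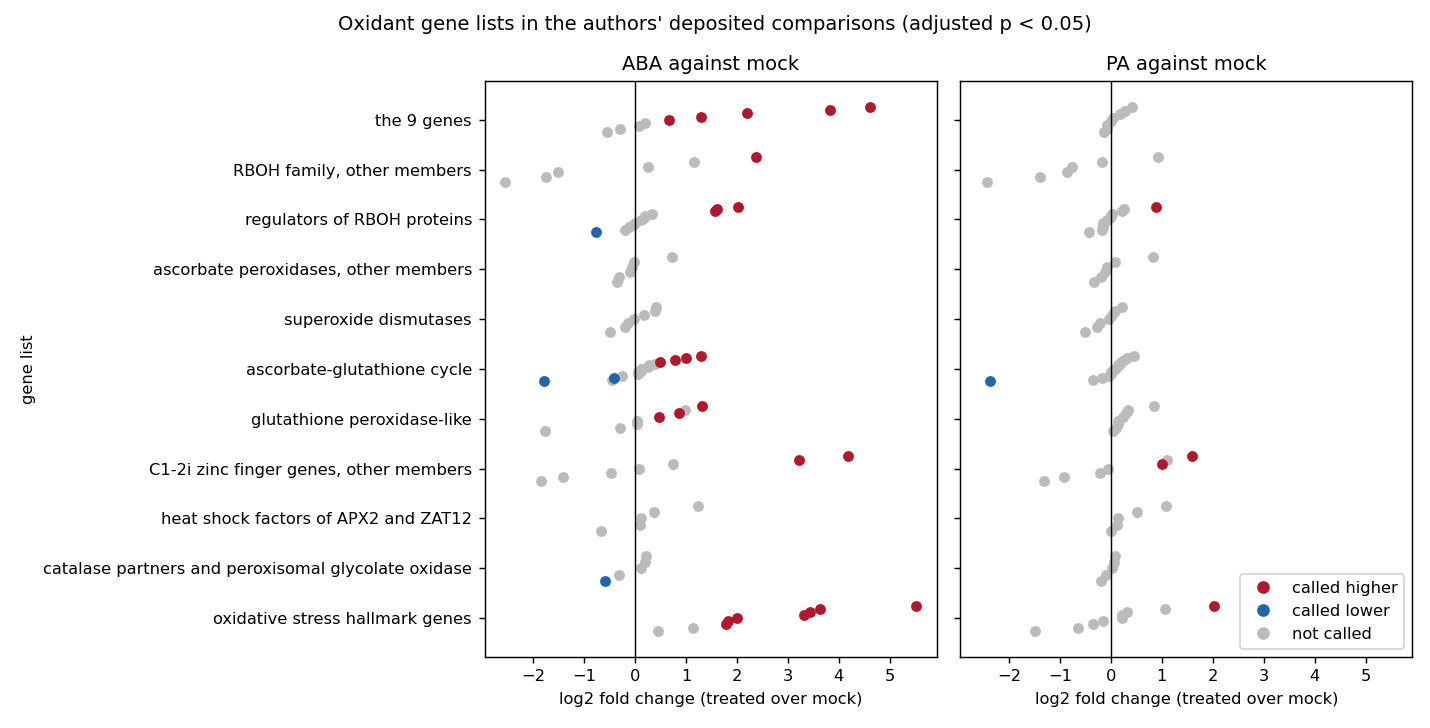
log2 fold changes in the authors' deposited tables for ABA against mock (left) and PA against mock (right), for the 9 genes and the other lists of oxidant metabolism. Genes with no finite log2 fold change are not drawn, among them APX2 with PA, at a fold of 0. Red points were called higher, blue lower and grey not called; 7 of 9 hallmark genes are red with ABA and 1 with PA.

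For each of the 5 genes called with ABA, the 3 genes most alike across the 8 libraries were found by Pearson's r of log2(normalized count + 1), among 16418 genes with a mean of at least 50, as a description with no test. The 8 points are the same libraries for every pair of genes. RBOHF was most like AT4G08570 (r = 0.997), RCD1 (0.996) and Phox4 (0.996). APX2 was most like TOM3 (0.992), AT5G11770 (0.986) and AT3G18350 (0.985). APX2 had at most 2 reads in any library outside ABA seedlings, so its r rests on the 2 ABA libraries against values near 0. CAT1 was most like AT5G25360 (0.99), AT1G06050 (0.981) and ECH2 (0.976). ZAT10 was most like SUC2 (0.988), AT1G20225 (0.987) and UMAMIT20 (0.983), and ZAT12 most like HSA32 (0.993), GSTU25 (0.992) and NAC13 (0.991). HSA32 had a mean of 226 in ABA seedlings and 27.8 in mock seedlings.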

How the data were processed

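Polyadenylated RNA of whole seedlings was sequenced in 8 libraries, 2 biological replicates in each of 4 groups. TopHat 1.4.1, DESeq 1.8.3 and HTSeq are named, per the submitters' processing notes, for the TAIR10 build, with no role given to each. The authors deposited, per the file headers, a table of each compound against mock: a signal (group means of normalized counts), a fold (the ratio of 2 such means, here turned into log2 fold changes) and p-values with adjusted p-values. Of 32683 rows, 32678 are genes; reads in no feature (48.2% to 48.5% of the total) and ambiguous ones (0.278% to 0.315%) were left out.

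A deposited mean averages whole reads of 2 libraries, each divided by that library's size factor, so it was split back into those reads. Of means above 0, 100% split in 1 way, and 4000 of 4000 simulated means per group were split right. Size factors were 1.15 and 0.816 (ABA), 1.17 and 0.855 (PA), 1.00 and 0.968 (DPA), and 0.979 and 0.917 (mock). Replicate numbers could not be tied to libraries. A count model planned for deposited counts was not used, since the files hold means. Comparisons with mock use the authors' deposited adjusted p (DESeq) under 0.05. Comparisons between compounds use limma 3.58.1 (R 4.3.3, trend, log2 of normalized count plus 1, mean of at least 10, all 8 libraries, 4 residual and 5.37 prior degrees of freedom), with Benjamini-Hochberg adjustment over 19617 genes. Counting intervals are exact 95% intervals and cover counting error only; a count of 0 was read as 3 reads. The limma p-values weigh each change against the spread between biological duplicates, pooled over the groups and moderated across genes. The deposited p-values are the authors' own. Promoter positions and overlaps come from the TAIR10.1 annotation.

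The 9 genes and all lists were chosen with earlier results of these data known. All 9 genes are named; of the lists, at most 3 rising and 3 falling genes per list and comparison, the largest among those called; and for each member called against mock the 3 genes most correlated with it.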

Additional observations from a re-analysis of the deposited data

How the results depend on the processing

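No paired analysis was possible because the deposited columns carry no replicate numbers. Members called with ABA numbered 4 (at least 2-fold) to 6 over the deposited and limma alternatives; without single libraries they ranged from 3 to 5, APX2 lying under the mean filter in each. List genes called with ABA were 32, and 20 when at least 2-fold was also asked, and 29 to 41 without single libraries. With PA, list genes were 5, and 2 to 11 without single libraries (2 without the PA library of the smaller size factor, 11 without the mock library of the smaller size factor). Calls with PA over all genes were also fewest and most in those same fits, so the range did not belong to the lists alone. Among the limma fits, calls with DPA over all genes appeared only without the mock library of the larger size factor. The authors' deposited table (DESeq) called 3 of 23970 genes with DPA. A normal test of the deposited fold changes called 2 of the members for PA against ABA, against 4, and 3 for DPA against ABA, against 7. ZAT10 for PA against ABA then had an adjusted p of 0.0955. That test takes its SE from the deposited p and ignores the shared mock libraries, so it does not decide between these counts. Asking for at least 2-fold left 3 for DPA against ABA. Without single libraries, PA against ABA gave 3 in each fit and DPA against ABA 4 to 5, while the members called for PA and DPA against mock and for DPA against PA stayed at 0. Over all genes, ABA calls numbered 3713 in the authors' deposited table and 6335 by limma.

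Direction turned in CAT2 with ABA (-0.0167 with upper-quartile scaling, limma adjusted p = 0.908) and, without single libraries, in values that were not called, for which the cause was not tested. For PA against mock these ran from -0.34 to 0.19 for APX1, from -0.20 to 0.23 for CAT3 and from -0.37 to 0.64 for ZAT10. For DPA against mock they ran from -0.0316 to 0.18 for RBOHF, from -0.34 to 0.0619 for APX1, from -0.12 to 0.25 for CAT1, from -0.19 to 0.25 for CAT3, from -0.0728 to 0.94 for ZAT10 and from -0.0186 to 0.86 for ZAT12. For DPA against PA they ran from -0.33 to 0.21 for APX1, from -0.29 to 0.035 for CAT1, from -0.15 to 0.19 for CAT3 and from -0.40 to 0.47 for ZAT12. Of the alternatives over named genes, 907 kept direction and side of the threshold, 80 lost a call, 16 gained one and 22 turned. With 2 libraries a group, APX2 rests on 51, 0, 1 and 2 reads (ABA, PA, DPA and mock). The printed intervals leave room for changes with PA or DPA that did not pass.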
